A study of Homo sapiens with 6 samples.

Results

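The MCM helicase genes and the origin licensing factors MCM2, MCM3, MCM4, MCM5, MCM6, MCM7, MCM10, CDC6, CDT1 and GMNN were examined in HCT116 cells with and without METTL3. They were taken by gene symbol from the per-sample count tables, and all 10 were found among the 56638 gene symbols counted. HCT116 is a human colorectal carcinoma cell line, and METTL3 is the catalytic subunit of the enzyme complex that writes N6-methyladenosine (m6A) into mRNA. RNA-seq was performed on 3 WT samples and on 3 samples of METTL3-KO cells, in which METTL3 was knocked out by CRISPR/Cas9. Both groups carry the same passage label and were grown in the same serum-supplemented medium. The METTL3-KO line was made by lentiviral delivery with puromycin selection and expanded as a monoclonal line. An effect of METTL3 loss and a property of that clone cannot be told apart. The labels do not say that the 3 samples of a group came from separate cultures, so the p-values measure the spread between these samples, which may be technical.

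Licensing is the step that prepares each replication origin to fire once per cell cycle. In G1 the origin recognition complex, CDC6 and CDT1 load the ring-shaped MCM2-7 helicase onto DNA as an inactive double ring, and in S phase CDC7 and cyclin-dependent kinases, with MCM10, turn it into the active CMG helicase by adding CDC45 and the GINS complex. Geminin, the product of GMNN, binds CDT1 outside G1 and blocks reloading. Many of these genes are textbook targets of E2F transcription factors, whose activity rises at the G1/S transition, and MCM proteins are widely used to mark cycling cells.

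The promoters of the genes are shown first because E2F factors are known to act on such genes through a GC-rich element near the start. RefSeq promoter windows on GRCh38.p14, from 250 bases before to 50 bases after the annotated start, were used for 8 of the 10 genes (not MCM4 and MCM5). The words TTTCCCGC, TTTCGCGC, TTTGCCGC and TTTGGCGC, which are forms of the E2F element, were searched on both strands. At least 1 of them lay in the windows of 7 of these 8 genes, against 3.31% of all 35116 windows and 5.4% of 15843 protein-coding genes counted over all their starts. The 6 genes below are given in the order helicase subunits, then loaders, each 5′ to 3′ on the gene's strand. Capitals mark the words or, where 2 words on opposite strands overlap, their joined length, and GCGGGAAA is TTTCCCGC read from the other strand.
MCM2, chr3:127598398-127598439, plus strand: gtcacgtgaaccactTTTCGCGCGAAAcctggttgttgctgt
MCM3, chr6:52284894-52284931, minus strand: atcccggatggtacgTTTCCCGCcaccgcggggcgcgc
MCM3, chr6:52284724-52284761, minus strand: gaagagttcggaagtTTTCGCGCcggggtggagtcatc
MCM6, chr2:135876507-135876610, minus strand: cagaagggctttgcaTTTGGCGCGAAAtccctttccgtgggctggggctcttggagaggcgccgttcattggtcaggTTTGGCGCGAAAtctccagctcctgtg
MCM7, chr7:100101562-100101599, minus strand: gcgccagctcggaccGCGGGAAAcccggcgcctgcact
MCM7, chr7:100101384-100101421, minus strand: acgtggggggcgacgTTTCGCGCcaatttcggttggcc
CDC6, chr17:40287871-40287908, plus strand: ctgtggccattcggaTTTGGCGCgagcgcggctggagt
CDT1, chr16:88803739-88803776, plus strand: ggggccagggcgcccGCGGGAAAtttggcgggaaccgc

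The words sat close to the start in most of these genes. Counted from the first base of the word on the gene's strand, they began at 3 and 7 in MCM2, at -174 and -4 in MCM3, at -187 and -9 of the first of 3 annotated starts in MCM7, at 8 in CDC6 and at -35 in CDT1. MCM6 held the same arrangement of overlapping words at 2 places, beginning at -152 and at -90. GMNN held TTTGGCGC at -80 of the second of its 2 annotated starts, and MCM10 held none of the words. The pentamer CCAAT and the GC-box hexamer GGGCGG were each found in 6 of the 8 genes, against 42.1% and 64.3% of protein-coding genes and 34.6% and 45% of all windows. The E2F and GC-box words share GC-rich letters, and a match describes the letters only, not a bound factor.

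METTL3 itself was first compared as a check of the labels. It stood at 30.63, 30.17 and 29.21 CPM (counts scaled to a common library size with TMM factors) in the WT samples and at 7.264, 7.688 and 6.888 CPM in the METTL3-KO samples, with no overlap (log2 fold change -2.04, SE 0.091, edgeR quasi-likelihood test with Benjamini-Hochberg adjustment, adjusted p = 1.585e-07). An edited gene can still be transcribed, so the remaining reads do not measure METTL3 protein.

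Counts assigned to genes ran from 20936091 to 30142144 per sample, and 22452 genes were tested. Of 8 colorectal epithelial markers 7 had a mean log2 CPM over 3. The summed level of the 8 was 6724 to 8263 CPM in WT and 9297 to 10420 CPM in METTL3-KO samples. Beside 13.3% of all tested genes and 20.2% of those over 3 in log2 CPM, 5 of the 8 markers were called higher in METTL3-KO. These included KRT19 (0.82 on the log2 scale, adjusted p = 0.0001338), VIL1 (0.62, adjusted p = 3.915e-05) and CDH17 (2.07, adjusted p = 1.581e-06), and CDH17 was the marker with a mean log2 CPM under 3. None of 9 markers of blood, endothelial, stromal and liver cells passed that level, 3 had no read in any sample, and their sum stayed between 4.783 and 7.993 CPM. Sample 3 of each group stood apart from samples 1 and 2. The chi-square per gene between samples was 2.58 for WT samples 1 and 2 and 2.34 for METTL3-KO samples 1 and 2, but 8.323 to 23.12 for pairs that held a sample 3. Deviations from the group mean correlated with transcript length in opposite directions in these 2 samples (Pearson r over 10042 genes, 0.63 in WT and -0.57 in METTL3-KO, a description across genes). In samples 1 and 2 this correlation was -0.57 and -0.52 in WT and 0.47 and 0.38 in METTL3-KO. Deviations cancel out within a group, so the opposite signs in samples 1 and 2 follow from sample 3. They do not show whether the groups left without both samples numbered 3 differ in length dependence, which was not tested. Any such difference could not be told apart from genotype. Leaving out both samples numbered 3 called 4823 genes lower and 4555 higher of 21242 tested, against 2959 and 2986 of 22452 with all samples. For the licensing genes, results are given with and without both samples numbered 3 where the call differs. For the other lists they are given only in part.

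All of MCM2-7 were lower in METTL3-KO cells, together with the loader CDT1 and the activation factor MCM10. Of the 10 genes 8 were called lower at an adjusted p under 0.05 and 0 higher, while 13.2% of all tested genes were called lower and 13.3% higher. When only the 10378 genes above 3 in average log2 CPM were counted, a level all 10 licensing genes exceed, 20.7% were called lower and 20.2% higher. In 9 of the 10 genes the highest METTL3-KO sample was under the lowest WT sample, against 20.7% of all tested genes and 27% of those over that level. The median log2 fold change was -0.50 over the 10 genes and -0.52 over MCM2-7, beside -0.02 over all tested genes. In bulk RNA, fewer cells in the phase that transcribes these genes and less RNA of each gene per cell cannot be told apart.

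**Figure D1:**
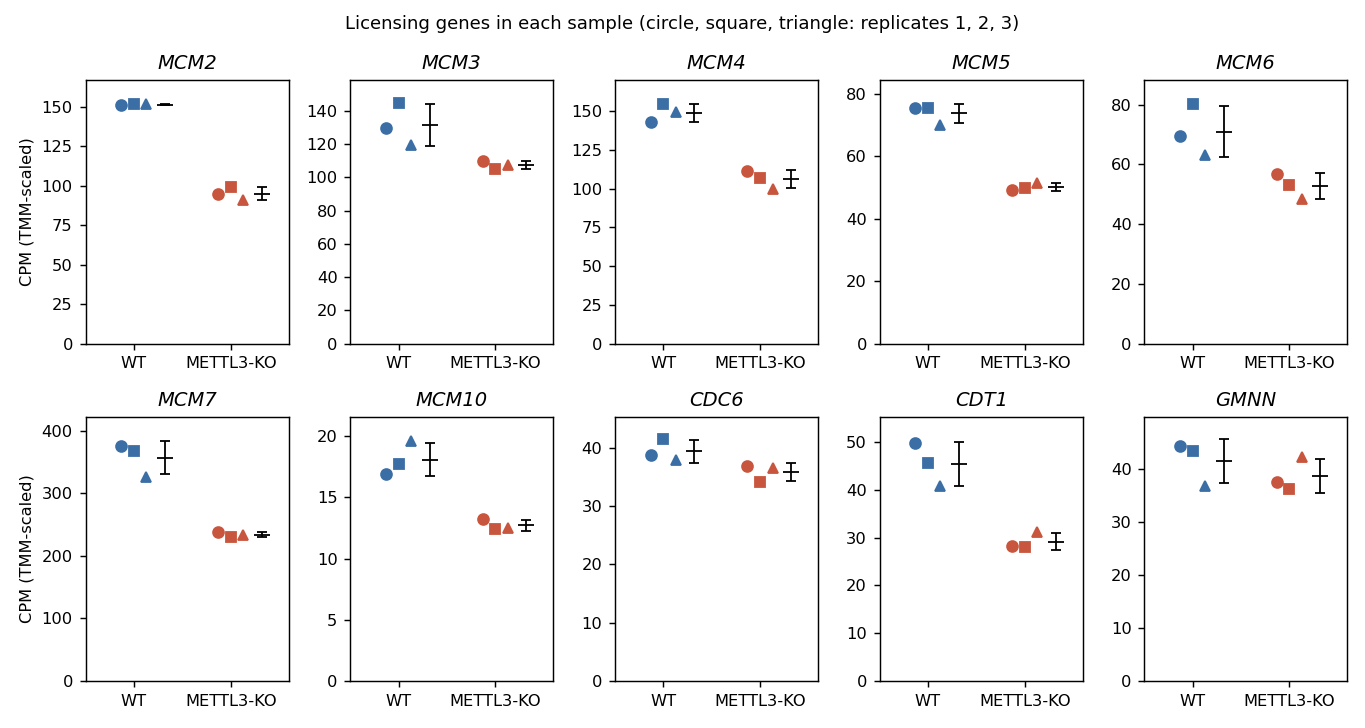
Level of each licensing gene in CPM (vertical axes, starting at 0) in the 3 WT (blue) and 3 METTL3-KO (red) samples, with replicates 1, 2 and 3 as circle, square and triangle and the mean with its SD beside them in black. The 2 groups are separate in every panel except GMNN, where METTL3-KO sample 3 at 42.39 CPM lies above WT sample 3 at 36.81 CPM.

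Among the helicase subunits, MCM2 (ENSG00000073111, GRCh37 chromosome 3, 127317253 to 127341279, plus strand) had the largest log2 fold change with all samples, and MCM7 had it without both samples numbered 3 (-0.67 against -0.64). Gene positions are on GRCh37 throughout. MCM2 is an N-terminally extended subunit that also handles parental histones at the fork. It stood at 151.1, 151.7 and 151.6 CPM in WT samples and at 94.8, 99.4 and 90.9 CPM in METTL3-KO samples. The WT samples were nearly equal and the lowest of them lay far above the highest METTL3-KO sample. Its mean fell from 151.5 ± 0.337 to 95.04 ± 4.26 CPM (SD, n = 3 each), a log2 fold change of -0.67 (SE 0.069, 95% interval -0.82 to -0.52, edgeR adjusted p = 3.246e-05).

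MCM7 (ENSG00000166508, chromosome 7, 99689856 to 99699563, minus strand), the highest of the 10 per length of transcript, stood at 375.7, 368.1 and 326.9 CPM in WT samples and at 237.8, 230.5 and 232.8 CPM in METTL3-KO samples. WT sample 3 was the lowest of its group but still well above all METTL3-KO samples, and the log2 fold change was -0.61 (SE 0.073, edgeR adjusted p = 9.619e-05). MCM7 was the only one of the 10 genes whose exons overlapped those of another annotated gene that was counted under the same symbol. Annotated genes whose symbol was not among those counted were not examined. AP4M1 on the opposite strand shares 392 nt with it, 7.9% of MCM7's merged exons. The counting mode left out reads assigned to both, and the kit does not mark strand. The intronic or exonic microRNA genes MIR25, MIR93 and MIR106B lie inside MCM7 on its own strand, and each had at most 74 counts in any sample.

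MCM4 and MCM6 form with MCM7 the subcomplex that has helicase activity in vitro. MCM4 (ENSG00000104738, chromosome 8, 48872745 to 48890720, plus strand) stood at 142.9, 154.9 and 149.2 CPM in WT and at 111.5, 106.9 and 99.79 CPM in METTL3-KO samples, and its log2 fold change was -0.49 (SE 0.073, edgeR adjusted p = 0.0004336). MCM6 (ENSG00000076003, chromosome 2, 136597196 to 136634013, minus strand) stood at 69.46, 80.16 and 63.21 CPM in WT and at 56.79, 53.18 and 48.26 CPM in METTL3-KO samples, and its log2 fold change was -0.43 (SE 0.098, edgeR adjusted p = 0.00685). Neither gene's groups overlapped, but the WT samples of MCM6 were spread more widely than those of MCM4, and the gap between the lowest WT and the highest METTL3-KO sample of MCM6 was small.

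MCM5 and MCM3 are neighbours in the ring, and MCM5 forms with MCM2 the gate through which DNA enters. MCM5 (ENSG00000100297, chromosome 22, 35796127 to 35821424, plus strand) stood at 75.61, 75.42 and 70.05 CPM in WT and at 49.12, 49.86 and 51.45 CPM in METTL3-KO samples. Both groups were tight, and the log2 fold change was -0.56 (SE 0.072, edgeR adjusted p = 0.0001656). MCM3 (ENSG00000112118, chromosome 6, 52128812 to 52149679, minus strand) had the smallest change of the 6 subunits. It stood at 130, 145.1 and 119.7 CPM in WT and at 110.2, 105.3 and 107.7 CPM in METTL3-KO samples, so WT sample 3 came close to the METTL3-KO samples. Its log2 fold change was -0.29 (SE 0.081, edgeR adjusted p = 0.02016), and this call rested on the full set of samples or on leaving out WT sample 3 (adjusted p = 0.0004219). It was lost when any other single sample was left out, with adjusted p of 0.05562 and 0.115 without WT samples 1 and 2 and of 0.06136, 0.09795 and 0.05255 without METTL3-KO samples 1, 2 and 3. Without both samples numbered 3, where 4823 of 21242 tested genes were called lower, the change was -0.35 (adjusted p = 8.755e-09).

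**Figure D2:**
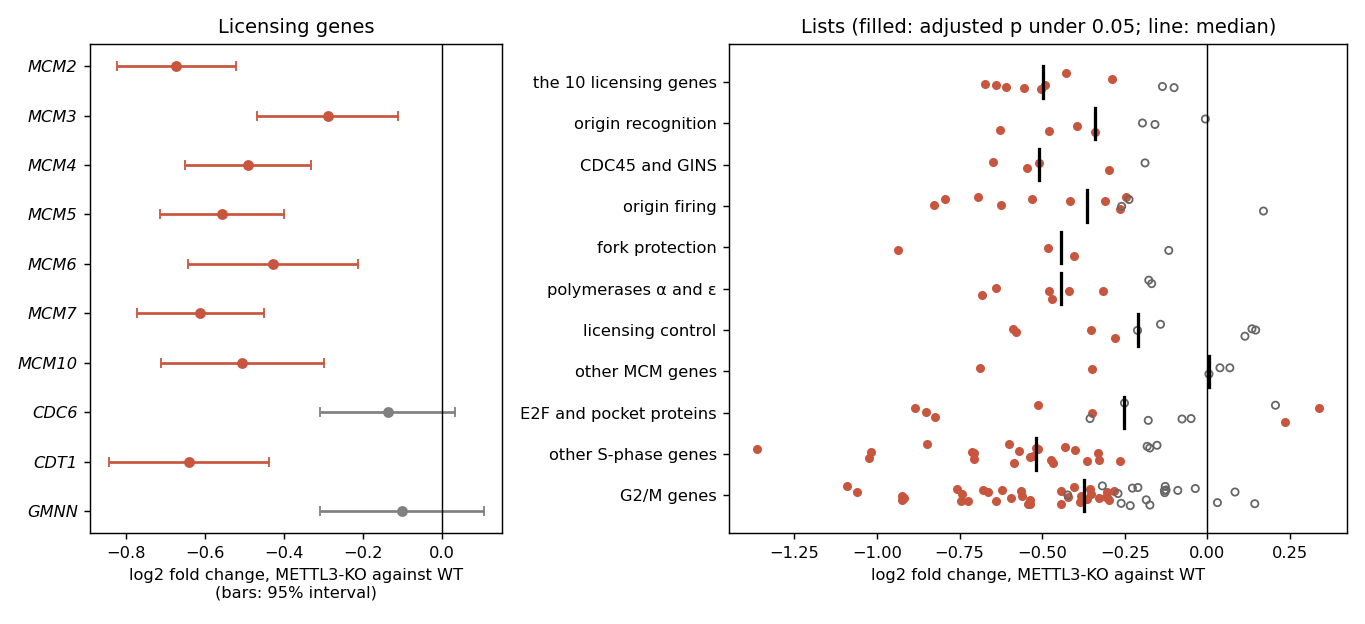
Log2 fold change of METTL3-KO against WT for the 10 licensing genes with 95% intervals (left, grey where the adjusted p is over 0.05) and for each gene of the licensing genes and 10 related lists (right, filled where called, vertical line at the list median). The intervals of CDC6 and GMNN reach 0 and those of the other 8 genes do not.

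MCM10 (ENSG00000065328, chromosome 10, 13203558 to 13253110, plus strand) is not a ring subunit but a separate protein that helps the loaded helicase start to unwind. It had the lowest level per length of the 10 and stood at 16.94, 17.69 and 19.6 CPM in WT and 13.2, 12.42 and 12.5 CPM in METTL3-KO samples, which correspond to 273 to 465 counts. The groups did not overlap, and the log2 fold change was -0.51 (SE 0.094, edgeR adjusted p = 0.001881).

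The 2 loaders differed from each other. CDT1 (ENSG00000167513, chromosome 16, 88870197 to 88875666, plus strand), which brings MCM2-7 to the origin, stood at 49.9, 45.61 and 40.7 CPM in WT and at 28.33, 27.93 and 31.25 CPM in METTL3-KO samples. Its groups were clearly apart, with a log2 fold change of -0.64 (SE 0.093, edgeR adjusted p = 0.0003446). CDC6 (ENSG00000094804, chromosome 17, 38444131 to 38460909, plus strand), the ATPase that joins the origin recognition complex for loading, stood at 38.75, 41.58 and 37.93 CPM in WT and at 36.95, 34.08 and 36.52 CPM in METTL3-KO samples. The groups did not overlap, yet the lowest WT and the highest METTL3-KO sample were close, and the change of -0.14 did not pass the test (SE 0.078, 95% interval -0.31 to 0.03, edgeR adjusted p = 0.2323). Leaving out single samples gave changes from -0.09 without WT sample 2 to -0.16 without WT sample 3, none of them called. Without both samples numbered 3 CDC6 was called lower (-0.17, adjusted p = 0.02436), as were 4823 of the 21242 genes then tested.

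GMNN (ENSG00000112312, chromosome 6, 24775159 to 24786327, plus strand), the inhibitor of CDT1, stood at 44.36, 43.53 and 36.81 CPM in WT and at 37.58, 36.4 and 42.39 CPM in METTL3-KO samples. The groups overlapped because WT sample 3 was low and METTL3-KO sample 3 high, and the log2 fold change of -0.10 did not pass the test (SE 0.095, 95% interval -0.31 to 0.11, edgeR adjusted p = 0.4764). Leaving out single samples gave -0.05 without WT sample 1 to -0.18 without WT sample 3, none of them called. Without both samples numbered 3 it was -0.25 and was called lower (adjusted p = 0.000631). Whether GMNN was called therefore depended on the 2 samples that stood apart. Whether the groups left without them differ in length dependence was not tested, and such a difference could not be told apart from genotype. With all samples and a correction for transcript length and GC content its change was -0.05 (edgeR adjusted p = 0.5287).

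CDT1 and GMNN were also compared as a ratio within each sample, which does not depend on library scaling. The ratio of CDT1 CPM to GMNN CPM was 1.125, 1.048 and 1.106 in WT samples and 0.7538, 0.7675 and 0.7372 in METTL3-KO samples, and here both samples numbered 3 lay with the others of their group. The mean log2 ratio fell from 0.13 ± 0.053 to -0.41 ± 0.029 (SD, n = 3 each), a difference of -0.54 that an exact two-sided permutation test gave p = 0.1, the smallest value that 20 assignments of 3 against 3 samples allow. Leaving out both samples numbered 3 gave a difference of -0.51. The 2 genes were nearly equal per kb of merged exons in WT cells (log2 ratio -0.03), whereas with the longest transcript as length GMNN was ahead (log2 ratio -0.95), so which of them was ahead depended on the gene model.

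Levels between genes were compared as CPM per kb of merged exons. In WT cells MCM7 was highest at 71.96 ± 5.30, followed by MCM3 at 36.11 ± 3.51 and MCM2 at 32.12 ± 0.0714, and MCM10 was lowest at 3.313 CPM per kb. MCM6 (17.16 ± 2.07), GMNN (16.79), CDT1 (16.45) and MCM4 (15.13 ± 0.607) lay within each other's spread, and MCM5 (10.14 ± 0.435) and CDC6 (7.423) followed. With the longest transcript as length MCM7 and MCM10 kept the highest and lowest place, but MCM2 came above MCM3, GMNN above MCM6, and MCM4 above both MCM6 and CDT1. The mRNA levels of the 6 ring subunits were thus unequal in both groups although the ring holds 1 of each.

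Summed over MCM2-7, the level was 185.2, 191.7 and 171 CPM per kb in WT and 130.1, 127 and 124.6 CPM per kb in METTL3-KO samples. The groups did not overlap (182.6 ± 10.6 against 127.2 ± 2.74, SD, n = 3 each). MCM3 took 19.75% ± 0.888 of this sum in WT and 23.23% ± 0.483 in METTL3-KO samples, a gain of 3.48 percentage points. MCM7 went from 39.39% ± 1.32 to 37.03% ± 0.554 and MCM2 from 17.63% ± 1.05 to 15.84% ± 0.657. The groups did not overlap for these 3 subunits, and each gave p = 0.1 in an exact two-sided permutation test, the smallest value possible, and 0.2 after Benjamini-Hochberg adjustment over the 6 subunits. The shares of MCM4, MCM5 and MCM6 overlapped between groups, with differences of 0.16, -0.13 and 0.64 percentage points (exact permutation p = 0.8, 0.6 and 0.2, adjusted 0.8, 0.72 and 0.3). The same 3 subunits moved in the same directions with the longest transcript as length, by 2.94, -2.19 and -1.55 points for MCM3, MCM7 and MCM2.

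**Figure D3:**
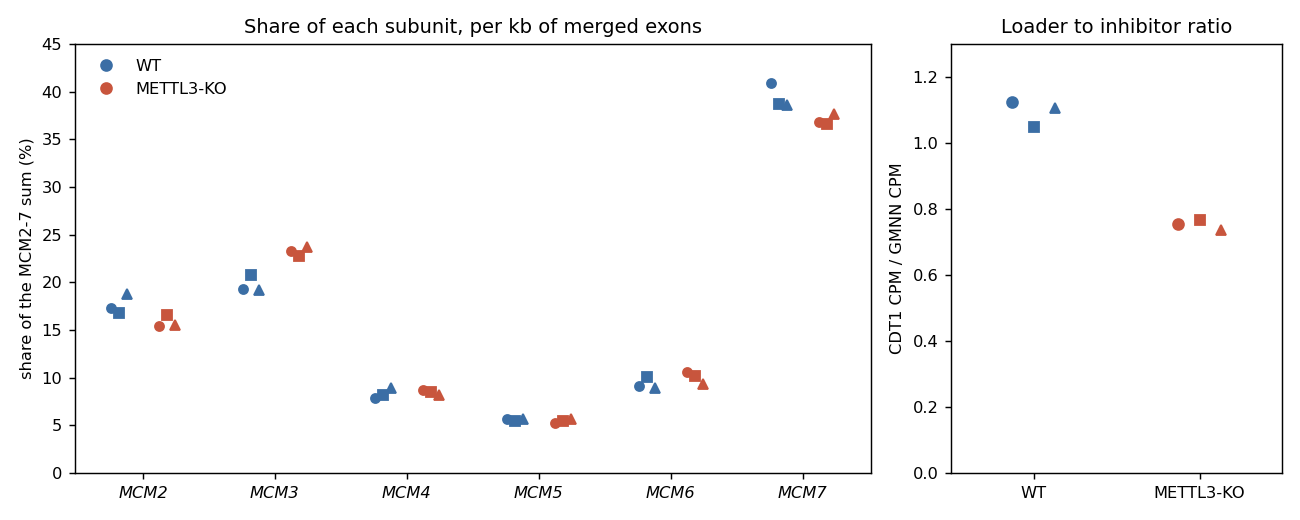
Share of each MCM2-7 subunit in their summed level per kb of merged exons, in percent (left), and ratio of CDT1 to GMNN CPM (right), by sample in WT (blue) and METTL3-KO (red), with replicates 1, 2 and 3 as circle, square and triangle and both axes starting at 0. MCM3 gains share in all METTL3-KO samples, MCM2 and MCM7 lose it, and the CDT1 to GMNN ratio lies between 0.7372 and 0.7675 in METTL3-KO against 1.048 to 1.125 in WT samples.

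The origin recognition complex, the platform on which MCM2-7 is loaded, was lower in part. Of its 7 genes (6 subunits and the ORC-associated LRWD1) 4 were called lower and 0 higher, with a median log2 fold change of -0.34. Over all tested genes 13.2% were called lower. ORC6 went from 24.11 to 15.61 CPM (log2 fold change -0.63, edgeR adjusted p = 0.000265), ORC3 from 37.64 to 28.65 CPM (-0.39, adjusted p = 0.002396) and ORC1, the subunit whose level follows the cell cycle, from 22.47 to 16.09 CPM (-0.48, adjusted p = 0.002639). ORC2, ORC4 and LRWD1 did not pass the test, and ORC4 was at 39.24 and 39.08 CPM in WT and METTL3-KO cells.

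Of the 5 genes for CDC45 and the GINS complex, which turn the loaded ring into the CMG helicase, 4 were called lower. Their median was -0.51, and 13.2% of all tested genes were called lower. GINS1 went from 31.49 to 22.09 CPM (-0.51, adjusted p = 0.0007175), GINS3 from 12.26 to 7.808 CPM (-0.65, adjusted p = 0.0007837) and GINS2 from 18.55 to 12.69 CPM (-0.55, adjusted p = 0.002045). CDC45 itself fell by less, at -0.30 (adjusted p = 0.03341), and GINS4, at under 3 CPM, did not pass.

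The kinases and scaffolds that fire licensed origins showed the same direction, with 9 of 12 called lower, 0 higher and a median of -0.36. For this list and those that follow here, the share of all tested genes called lower was 13.2%. DBF4B, an activating subunit of CDC7 kinase, went from 37.55 to 21.15 CPM (-0.83, adjusted p = 2.153e-05). RECQL4 (-0.70, adjusted p = 0.0001073) and the scaffold TICRR (-0.79, adjusted p = 0.000214), both needed to assemble the active helicase, were also lower. CCNE1, CCNE2 and DONSON did not pass, and CCNE1 had the only positive value of the list (0.17, adjusted p = 0.3335). Of the fork protection genes 3 of 4 were called lower, led by TIMELESS, which went from 85.73 to 44.76 CPM (-0.94, adjusted p = 5.942e-06), with WDHD1 at -0.40 (adjusted p = 0.00991) and CLSPN at -0.48 (adjusted p = 0.01539), while TIPIN, the partner of TIMELESS, did not pass (-0.12, adjusted p = 0.4418). Of 8 subunits of DNA polymerases alpha and epsilon 6 were called lower, among them the primase subunit PRIM1 (-0.68, adjusted p = 0.0002718), POLA2 (-0.64, adjusted p = 8.576e-05) and POLE (-0.48, adjusted p = 0.001364). Without METTL3-KO sample 2 the fork protection genes had 1 lower call, and without METTL3-KO sample 1 the polymerase genes had 3. The list medians were -0.44 for both, and -0.30 and -0.31 without both samples numbered 3.

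The next list holds genes that act on CDT1, CDC6 or geminin protein or are relatives of geminin. Of 10 genes 9 were tested (GMNC had too few counts), and 4 were called lower and 0 higher, with a median of -0.21, beside the 13.2% of all tested genes called lower. CCNF, which targets CDC6 for degradation, went from 52.1 to 34.7 CPM (-0.59, adjusted p = 0.0003255), DTL, the adaptor that directs CDT1 to the CUL4 ligase, went from 21.38 to 16.74 CPM (-0.35, adjusted p = 0.00991), and SKP2, which also acts on CDT1, went from 63.9 to 52.63 CPM (-0.28, adjusted p = 0.02244). MCIDAS, a geminin relative at under 3 CPM, was the other one called. The CUL4 ligase genes CUL4A, CUL4B and DDB1 had positive values that did not pass (0.13, 0.11 and 0.15). Leaving out METTL3-KO sample 2 or METTL3-KO sample 3 left 2 of these genes called lower. Leaving out WT sample 3 gave 5 lower and 2 higher calls, and leaving out both samples numbered 3 gave 6 lower and 3 higher calls.

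Among other genes of the MCM name, MCM8 (-0.69, adjusted p = 0.0008325), part of a recombination helicase, and MCMBP (-0.35, adjusted p = 0.002491), which binds MCM proteins, were lower, from 45.49 to 28.21 CPM and from 102.4 to 80.33 CPM. MCM9, the partner of MCM8, stood at 11.87 and 11.86 CPM, and MCM3AP and MCMDC2 did not pass either. The median of this list was 0.00, so the lower level was not a feature of every gene carrying the name.

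The E2F and RB family is known to control the transcription of licensing genes. Of 13 genes 5 were called lower and 2 higher, with a median of -0.25, beside 13.2% of all tested genes called lower and 13.3% called higher. The pocket protein genes RBL1 (-0.88, adjusted p = 0.0003477) and RB1 (-0.85, adjusted p = 0.0002236) and E2F5 (-0.82, adjusted p = 4.122e-05), a repressive family member, were lower, whereas TFDP1, the dimer partner of E2F proteins, went from 206 to 260.5 CPM (0.34, adjusted p = 0.002815) and RBL2 from 106.7 to 125.4 CPM (0.23, adjusted p = 0.03747). E2F1, the activator classically linked to licensing genes, had a change of -0.08 that did not pass (adjusted p = 0.6707). Without METTL3-KO sample 1 or METTL3-KO sample 2 the lower calls went from 5 to 3, and without either of these or WT sample 1 or WT sample 2 the higher calls went from 2 to 1.

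Lists of other cell cycle genes were examined beside the licensing genes. Of 25 other S-phase genes 22 were called lower and 0 higher, with a median of -0.52, close to that of MCM2-7. RAD51AP1, a recombination factor, had the largest change of the list (-1.36, adjusted p = 8.959e-06), followed by the thymidylate synthase gene TYMS (-1.02, adjusted p = 2.349e-05) and the chromatin remodeller HELLS (-1.02, adjusted p = 6.87e-06). Of 52 genes of G2 and mitosis 34 were called lower, 0 higher and 18 neither, with a median of -0.37. Over all tested genes 13.2% were called lower, and 20.7% of those above 3 in average log2 CPM. Those called lower included PSRC1 (-1.06, adjusted p = 7.01e-06), NUSAP1 (-0.76, adjusted p = 1.152e-05) and CDC25C (-0.92, adjusted p = 1.422e-05). E2F words lay in the promoter windows of 1 of 7 origin recognition genes, 3 of 4 genes for CDC45 and GINS, 2 of 7 firing factors, 2 of 4 fork protection genes, 5 of 8 polymerase genes, 3 of 10 licensing control genes, 2 of 4 other MCM genes, 5 of 11 E2F and RB genes, 7 of 18 other S-phase genes and 3 of 44 genes of G2 and mitosis, counting genes with an entry. The share over 15843 protein-coding genes was 5.4%. Lists that held many lower calls differed in how often the words were found, and not every listed gene had an entry. Whether the words relate to the lower levels was not tested.

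Within samples, the mean log2 CPM of MCM2-7 minus that of the other S-phase genes was 1.44 ± 0.0935 in WT and 1.48 ± 0.0340 in METTL3-KO samples, and minus that of the G2 and mitosis genes it was 0.57 ± 0.142 and 0.48 ± 0.0248. Both of these overlapped between the groups and were not tested. Against the genes for CDC45 and GINS the difference was 3.14 ± 0.104 in WT and 3.07 ± 0.099 in METTL3-KO samples, and the groups overlapped. Against the origin recognition genes, whose median change was smaller, the difference went from 1.90 ± 0.0770 to 1.71 ± 0.0670, with no overlap. These differences were not tested either.

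The pattern across the 6 samples was compared as well. Taking the mean-centred log2 CPM of MCM2-7 as reference, the root-mean-square difference was 0.050 for MCM4, 0.053 for MCM5 and 0.066 for MCM7, and 0.19 for CDC6 and 0.23 for GMNN. The median over 9521 protein-coding genes outside the lists (average log2 CPM 3 or more) was 0.29. The closest of these were HMHA1, BZW1, MSANTD2, PGD and TRAPPC6B, at 0.031 to 0.036. These values are descriptions over 6 samples that mainly hold the difference between the 2 groups, and the reference contains the subunits themselves.

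**Figure D4:**
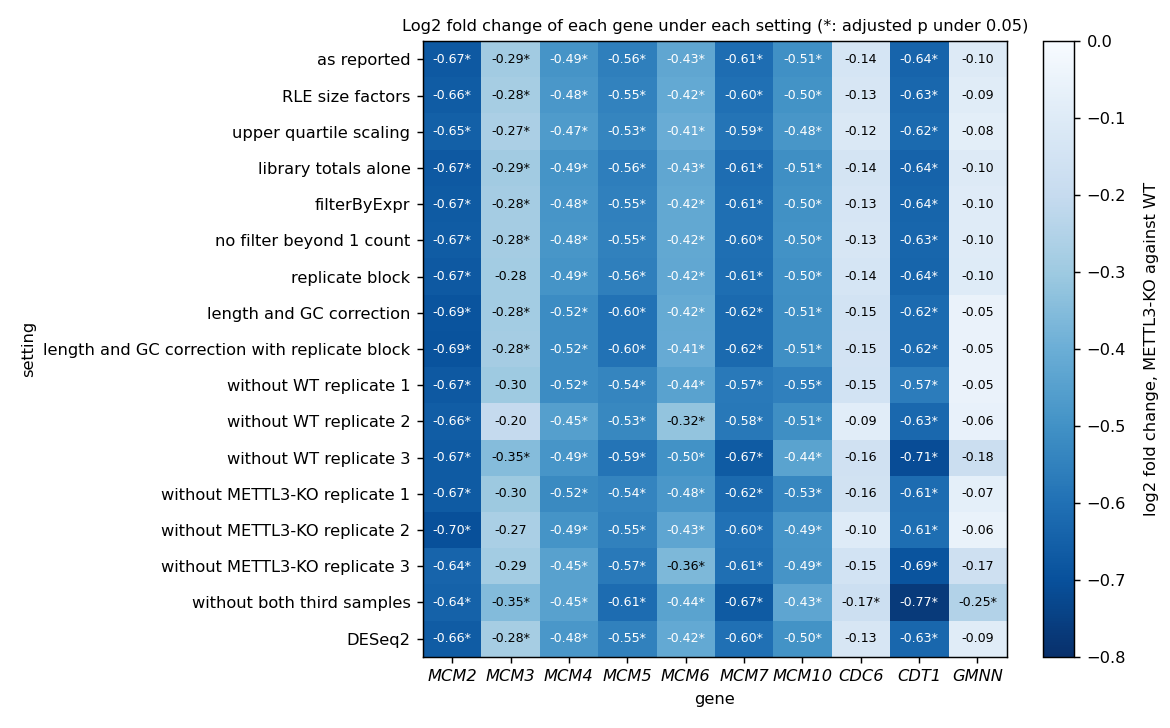
Log2 fold change of METTL3-KO against WT (colour and printed value) for each licensing gene (columns) under the fit as reported and 16 other settings (rows), with an asterisk where the adjusted p is under 0.05. MCM2, MCM4, MCM5, MCM6, MCM7, MCM10 and CDT1 carry an asterisk in every row, MCM3 loses it in 6 rows, and CDC6 and GMNN have it only without both samples numbered 3.

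MCM2, MCM4, MCM5, MCM6, MCM7, MCM10 and CDT1 were called lower under each of the 16 other settings tried. Without both samples numbered 3 their changes ran from -0.43 in MCM10 to -0.77 in CDT1, and with a correction for transcript length and GC content from -0.42 in MCM6 to -0.69 in MCM2. The corrected change of GMNN was -0.05 (edgeR adjusted p = 0.5287) and that of CDC6 was -0.15 (adjusted p = 0.1072).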

How the data were processed

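RNA-seq of 3 WT and 3 METTL3-KO HCT116 samples was used, and none was left out or pooled. The authors aligned paired reads to hg19 (GRCh37) with TopHat2 2.0.11 and counted them per gene with HTSeq in union mode, so each deposited file holds raw, unscaled counts for gene symbols. Whether strand was used in counting is not given in the sources used here. The authors' counting left out reads on more than 1 gene (7.954% to 8.771% of each sample) or at more than 1 place, which affects genes with close copies. Totals were 20936091 to 30142144 counts, so MCM10 rested on 273 to 465 counts per sample.

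CPM are counts scaled with TMM factors. Genes with fewer than 5 counts in both conditions were removed. The remaining 22452 were tested, METTL3-KO against WT, with edgeR 4.0.16 in R 4.3.3 (quasi-likelihood test, TMM, two-sided, Benjamini-Hochberg over all tested genes). The SE is the fold change divided by the square root of F. Alternatives were DESeq2 1.42.0, other scalings and filters, a replicate block, a spline of length and GC content, and leaving samples out. The script was checked on simulated counts. Ratios and shares were compared with exact permutation tests. Positions and lengths came from GENCODE v44 on GRCh37, which matched 35710 of 56638 symbols, and promoter windows from RefSeq on GRCh38.p14, credited to it.

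The genes and lists were chosen with earlier results of these data known. Named are the 10 genes, METTL3, the 3 smallest p of each list among those passing, up to 2 in the other direction, and the 5 nearest in pattern. Other list genes were named after their values were seen.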

Additional observations from a re-analysis of the deposited data

How the results depend on the processing

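The directions of the 10 genes and the median of MCM2-7 (-0.49 to -0.56) were kept under each setting tried. Across all genes, 2959 lower and 2986 higher calls became 4823 and 4555 without both samples numbered 3 and 1719 and 1810 with a replicate block. MCM3 was not called under the block (adjusted p = 0.1056), which kept 7 of the 10 genes called, while with the block and the length and GC correction together it was called (adjusted p = 0.01288). Lower calls under the block fell from 9 to 5 for firing factors, 3 to 1 for fork protection, 6 to 3 for polymerases, 4 to 1 for licensing control and 5 to 3 for the E2F and RB genes. They fell from 4 to 3 for origin recognition, and also from 4 to 3 for CDC45 and GINS. Same-numbered samples did not share deviations from their group means, which correlated at -0.59, -0.39 and -0.78 over 10336 genes. METTL3-KO replicate 3 correlated at 0.72 and 0.63 with WT replicates 1 and 2. WT replicate 3 correlated at 0.66 and 0.51 with METTL3-KO replicates 1 and 2. Deviations cancel out within a group, so these correlations are not independent of each other. The labels do not say whether the numbers pair the samples. METTL3 itself followed the labels in all 6 samples, and why the replicates numbered 3 differ was not tested. The share of MCM4 in the summed helicase level, 0.16 points higher in METTL3-KO, turned to -0.074 without WT replicate 1 and ranged from -0.074 to 0.438 over single left-out samples. Of the 2 higher calls among E2F and RB genes 1 was lost under 6 settings. The cause was not tested. MCIDAS, GINS4, CCNE2, MCMDC2 and E2F2 rest on under 5 CPM.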

Other observations

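The 3 microRNA genes inside MCM7 were counted as genes of their own. MIR25 had 74, 60 and 59 counts in WT and 66, 38 and 52 counts in METTL3-KO samples. MIR93 had 2, 4 and 3 counts in WT and 8, 5 and 4 counts in METTL3-KO samples. MIR106B had 5, 4 and 4 counts in WT and 3, 6 and 4 counts in METTL3-KO samples. A library of this kind is not made to capture mature microRNAs, so no comparison of microRNA levels was made. AP4M1, whose exons overlap those of MCM7 on the opposite strand, had 529 to 670 counts in WT and 517 to 671 counts in METTL3-KO samples, with a log2 fold change of -0.09 that did not pass the test (edgeR adjusted p = 0.4574).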
